A study of Mus musculus with 6 samples.

Results

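The 10 genes described here encode secreted factors that call blood and lymphatic vessels to grow and the surface proteins that receive them. They were chosen by name from the 32285 genes listed for each library: the ligands Vegfa, Vegfc, Angpt1 and Angpt2 and the receptors Kdr, Flt1, Flt4, Nrp1, Tek and Tie1. All 10 were detected in each of the 6 libraries. Cells came from the injured enthesis, the site where the rotator cuff tendon joins bone, collected at day 7 after injury and repair (7 dpi) and pooled before droplet-based 3′ single-cell RNA sequencing (scRNA-seq). There were 3 libraries from wild-type controls on the C57BL/6 background and 3 from Nlrp3-/- mice, a commercial line with a global knockout of that gene. NLRP3 is the sensor of an inflammasome, a protein complex that matures interleukin-1β. The mice were operated on at 12 to 14 weeks of age, and the number of animals behind each library was not given.

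VEGF-A acts on endothelial cells through VEGFR2 (Kdr), which carries most of the growth signal, while VEGFR1 (Flt1) binds it tightly and limits how much reaches VEGFR2. VEGF-C acts on VEGFR3 (Flt4), the main receptor of lymphatic vessels, and neuropilin-1 (Nrp1) is a coreceptor for several of these factors. Angiopoietin-1 from supporting cells keeps vessels quiet through the receptor Tie2 (Tek), angiopoietin-2 from activated endothelium often counters it, and Tie1 is the partner of Tie2 that has no well-established ligand of its own. Repair of an enthesis, a tissue with few vessels, is accompanied by their ingrowth.

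Vegfa (ENSMUSG00000023951) lies on chromosome 17 from 46016993 to 46032369 on the minus strand of mouse build GRCm38. Vegfc (ENSMUSG00000031520; 54077606 to 54187096, plus strand), Angpt2 (ENSMUSG00000031465; 18690263 to 18741562, minus strand) and Nrp1 (ENSMUSG00000025810; 128358604 to 128503363, plus strand) lie on chromosome 8, and Angpt1 (ENSMUSG00000022309; 42424723 to 42676977, minus strand) lies on chromosome 15. Kdr (ENSMUSG00000062960; 75932827 to 75978458, minus strand) and Flt1 (ENSMUSG00000029648; 147561604 to 147726011, minus strand) share chromosome 5. Tek (ENSMUSG00000006386; 94739289 to 94874976, plus strand) and Tie1 (ENSMUSG00000033191; 118471191 to 118490061, minus strand) share chromosome 4. Flt4 (ENSMUSG00000020357) lies on chromosome 11 from 49609263 to 49652739 on the plus strand, the chromosome that also carries Nlrp3 (59541568 to 59566956), so strain variants linked to the deleted locus and the deletion itself cannot be told apart for Flt4. All 10 are annotated as protein-coding.

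Promoter stretches are shown for a pair of VEGF receptors and the pair of Tie receptors, 4 of the 5 receptors with an endothelial pattern in the levels described further on, Flt4 being the other. Each is the 100 bases before the RefSeq start in GRCm38.p6, written 5′ to 3′ on the gene's strand, and capitals mark GGAA or its reverse complement TTCC, the core letters bound by ETS factors. RefSeq promoters were matched for 8 of the 10 genes, all but Angpt1 and Angpt2.
Kdr (chr5:75978456-75978555, minus strand): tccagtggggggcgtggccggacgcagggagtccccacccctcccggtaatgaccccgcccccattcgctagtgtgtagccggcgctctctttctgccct
Flt1 (chr5:147726012-147726111, minus strand): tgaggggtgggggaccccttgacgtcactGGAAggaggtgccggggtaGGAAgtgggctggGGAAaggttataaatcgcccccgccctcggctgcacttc
Tek (chr4:94739189-94739288, plus strand): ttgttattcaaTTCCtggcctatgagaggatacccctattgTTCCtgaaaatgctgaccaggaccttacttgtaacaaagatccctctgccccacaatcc
Tie1 (chr4:118489850-118489949, minus strand): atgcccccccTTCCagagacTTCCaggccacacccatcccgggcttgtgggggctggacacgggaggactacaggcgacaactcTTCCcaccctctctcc

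The core letters occurred 3 times in the Flt1 window, 3 times in the Tie1 window, 2 times in the Tek window and 0 times in the Kdr window. Of 32851 promoter windows of the same length, 66.8% held GGAA on either strand. The letters TATAAA, searched on both strands, were found in the Flt1 window and in 5.56% of all windows. These are matches of letters in short windows, not measured binding sites.

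The libraries held between 97042713 and 134901999 unique molecular identifiers (UMIs, each counting 1 captured transcript). After filtering, between 9325 and 14963 cells per library entered the comparisons, 70892 in all, with medians between 3055.5 and 6710 UMIs per cell. Clusters found almost only in Nlrp3-/- replicate 1 held 45.7% of its cells and were set aside, against 0.0548% to 0.262% in the other libraries. Nlrp3 had 7901, 16215 and 11049 UMIs in the wild-type libraries and 0 in every Nlrp3-/- library. The genotype field of Nlrp3-/- replicates 2 and 3 names Nlrp4 and Nlrp5, and their titles name Nlrp3. Wild-type libraries held at most 10 UMIs of Xist, Nlrp3-/- libraries at least 51801 and 0 UMIs of the Y-linked Ddx3y, so genotype and sex cannot be told apart in any comparison below. Any pair of libraries shared at most 132 called barcodes.

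The first question was which cells of the wound made each gene. UMIs were summed per library and cell type and expressed as CPM, the count per 1000000 UMIs of that type, and types were named by resemblance to marker lists that held none of the 10 genes. Levels are compared between cell types for 1 gene, not between genes, because 3′ counts are not scaled to transcript length. The receptors Kdr, Flt1, Flt4, Tek and Tie1 were highest in endothelial cells with no overlap between that type and the next over the 3 wild-type libraries. Vegfa had the opposite layout, spread over myeloid, mast, B, T and NK, and mesenchymal cells and low in endothelium.

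**Figure D1:**
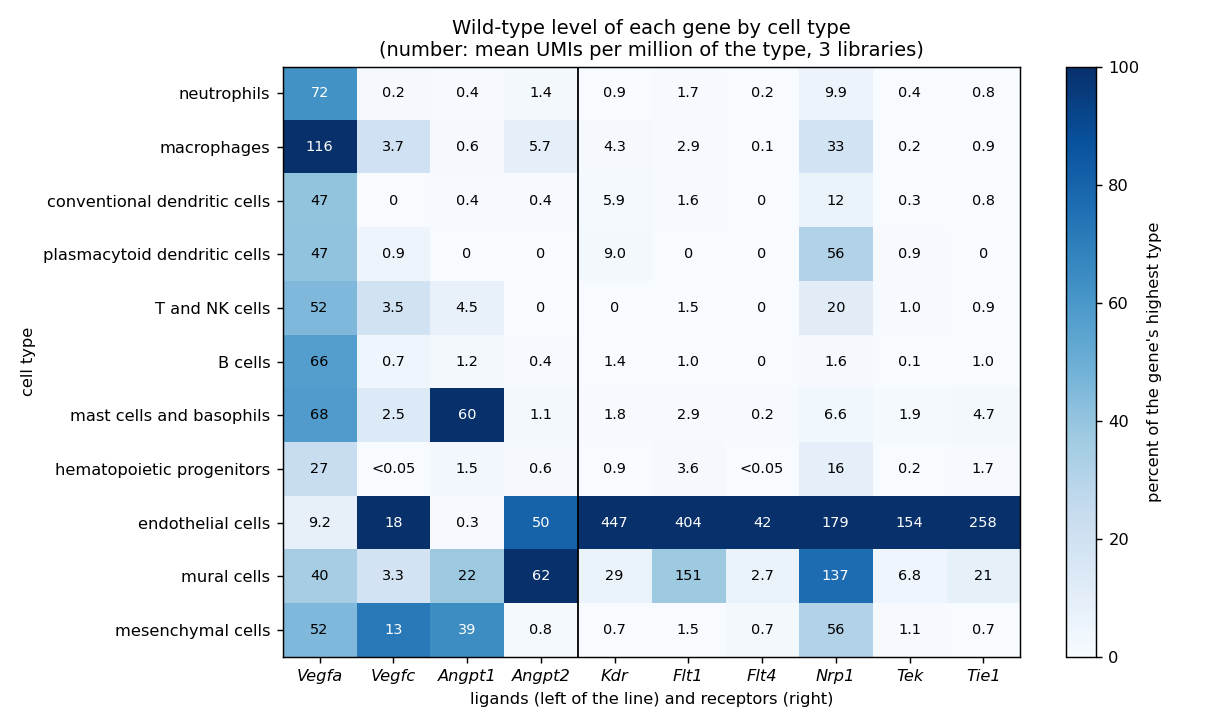
Mean level of each gene (columns) in 11 cell types (rows) of the 3 wild-type libraries, printed as CPM and coloured as percent of the type in which the gene was highest. Kdr, Flt1, Flt4, Tek and Tie1 have 1 dark cell, in endothelial cells, whereas Vegfa is spread from macrophages (116 CPM) to mesenchymal cells (52.5 CPM).

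Among the ligands, Vegfa stood at 116 ± 35.0 CPM (SD, n = 3) in macrophages, 72.3 ± 19.0 CPM in neutrophils, 66.3 ± 10.3 CPM in B cells, 67.6 ± 21.6 CPM in mast cells with basophils, and 52.5 ± 16.5 CPM in mesenchymal cells. In order of their means each of these types overlapped the next, and neutrophils came first when the levels were scaled by TMM factors over cell types. Within macrophages the subset with Arg1 and Spp1 among its markers had 220 ± 99.9 CPM, followed by MHC-II macrophages at 111 ± 39.1 CPM, resident-like macrophages at 101 ± 45.3 CPM and osteoclast-like macrophages at 96.4 ± 6.98 CPM. The larger Arg1 Spp1 sub-cluster, of 3193 cells, was led by Cxcl3, Nos2, Saa3, Mmp12 and Arg1. The other, of 1905 cells, was led by Arg1, Flrt3, Pdpn and Fn1. Monocyte-like macrophages had 56.0 ± 11 CPM, below the means of chondrocyte-like (90.5 ± 47.8 CPM) and dividing mesenchymal cells (71.0 ± 32.3 CPM). Mature neutrophils reached 112 ± 36.0 CPM. Among subsets too, each of these overlapped the next in order. RNA outside cells carried Vegfa at 68.2 to 110.9 CPM, close to the level of several cell types.

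Vegfc was highest in endothelial cells at 18.1 ± 6.09 CPM and mesenchymal cells at 13 ± 2.52 CPM, which overlapped, and fell to 3.66 ± 1.87 CPM in macrophages, the next type, without overlap. Arterial endothelial cells held 48.5 ± 5.12 CPM, above venous cells at 28.3 ± 12.1 CPM in every library. Angpt1 was found at 59.9 ± 31.6 CPM in mast cells and basophils and at 38.5 ± 5.96 CPM in mesenchymal cells, with overlap, and at 22.5 ± 7.57 CPM in mural cells, the pericytes and smooth muscle of the vessel wall. Mesenchymal cells named inflammatory for 9 of 10 listed markers, and led by Mmp3, Mmp13, Chl1 and the joint-lubricant gene Prg4, had 60.9 ± 7.70 CPM of Angpt1, more than the Pi16 Dpp4 subset at 41.3 CPM in each library. Angpt2 was a vessel-wall transcript, at 61.9 ± 15.1 CPM in mural cells and 49.7 ± 16.2 CPM in endothelial cells, with overlap, and at 5.66 ± 1.08 CPM in macrophages. Sprouting endothelial cells carried 71.0 ± 26.0 CPM of Angpt2, without overlap with venous cells (21.5 ± 8.45 CPM) or arterial cells (18.3 ± 13.8 CPM).

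Kdr stood at 447 ± 87.8 CPM in endothelial cells and 29.0 ± 18.7 CPM in mural cells, and its arterial, sprouting and venous levels of 495, 442 and 415 CPM overlapped. Flt1 differed from it in both respects. Mural cells kept 151 ± 12.9 CPM of Flt1 beside 404 ± 31.4 CPM in endothelial cells, and the endothelial subsets were ordered without overlap, arterial at 567 ± 31.7 CPM, venous at 470 ± 44.9 CPM and sprouting at 359 ± 26.1 CPM. Counts per gene cannot separate the soluble form of Flt1 from the full receptor. Flt4 had 42.2 ± 17.3 CPM in endothelial cells, 34.5 ± 10.6 CPM in the arterial, 29.5 ± 2.88 CPM in the sprouting and 15.2 ± 6.56 CPM in the venous subset. A cluster of 27 lymphatic-like cells had 553 CPM of Flt4 in the 6 cells of wild-type replicate 1, 771 CPM in the 9 cells of wild-type replicate 3 and 590 CPM in the 11 cells of Nlrp3-/- replicate 1. Nlrp3-/- replicate 2 held 1 such cell and the remaining libraries 0. A second cluster with lymphatic markers had 130 cells, 124 of them from Nlrp3-/- replicate 1 with 175 CPM of Flt4, and Ccl4 and Il1b were also among its leading genes. Both were too small to test.

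Tek had its highest mean of these 3 subsets in venous cells, with 255 ± 92.1 CPM against 144 ± 3.62 CPM in arterial and 134 ± 46.8 CPM in sprouting cells. The venous range lay above the arterial one and overlapped the sprouting one. Tie1 varied little between subsets, at 297 ± 14.5 CPM in arterial, 283 ± 23.4 CPM in venous and 262 ± 20.6 CPM in sprouting cells, and it had 258 ± 10.7 CPM in endothelial and 21.4 ± 10.4 CPM in mural cells as a whole. Nrp1 was the receptor with the widest use. It was found at 179 ± 13.7 CPM in endothelial cells, 137 ± 14.5 CPM in mural cells, 55.8 ± 6.53 CPM in mesenchymal cells, 55.7 ± 19.2 CPM in plasmacytoid dendritic cells and 33.0 ± 4.72 CPM in macrophages. The Pi16 Dpp4 mesenchymal subset reached 115 ± 19.1 CPM and resident-like macrophages 69.1 ± 9.76 CPM.

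Levels per type do not say which cells hold most of the transcripts, since types differ in number and in RNA per cell. In wild-type libraries 41.8% ± 4.39 of Vegfa UMIs lay in macrophages, 26.2% ± 7.22 in mesenchymal cells and 15.8% ± 4.20 in neutrophils. Mesenchymal cells held 65.7% ± 8.0 of Vegfc, 80.2% ± 11.3 of Angpt1 and 43.1% ± 4.52 of Nrp1. Endothelial cells held 90.5% ± 3.17 of Kdr, 82.5% ± 2.71 of Flt1, 86.0% ± 10.1 of Flt4, 91.0% ± 1.76 of Tek and 90.6% ± 0.930 of Tie1. Angpt2 was divided between endothelial cells (46.2% ± 6.18), macrophages (24.9% ± 5.11) and mural cells (17.1% ± 0.522). Macrophages, at 23.0% to 32.8% of wild-type cells, held that share of Angpt2 at a level of 5.66 CPM. RNA outside cells carried Angpt2 at 6.63, 6.25 and 5.99 CPM in the same libraries, about the macrophage level, and its part in the macrophage share was not tested.

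**Figure D2:**
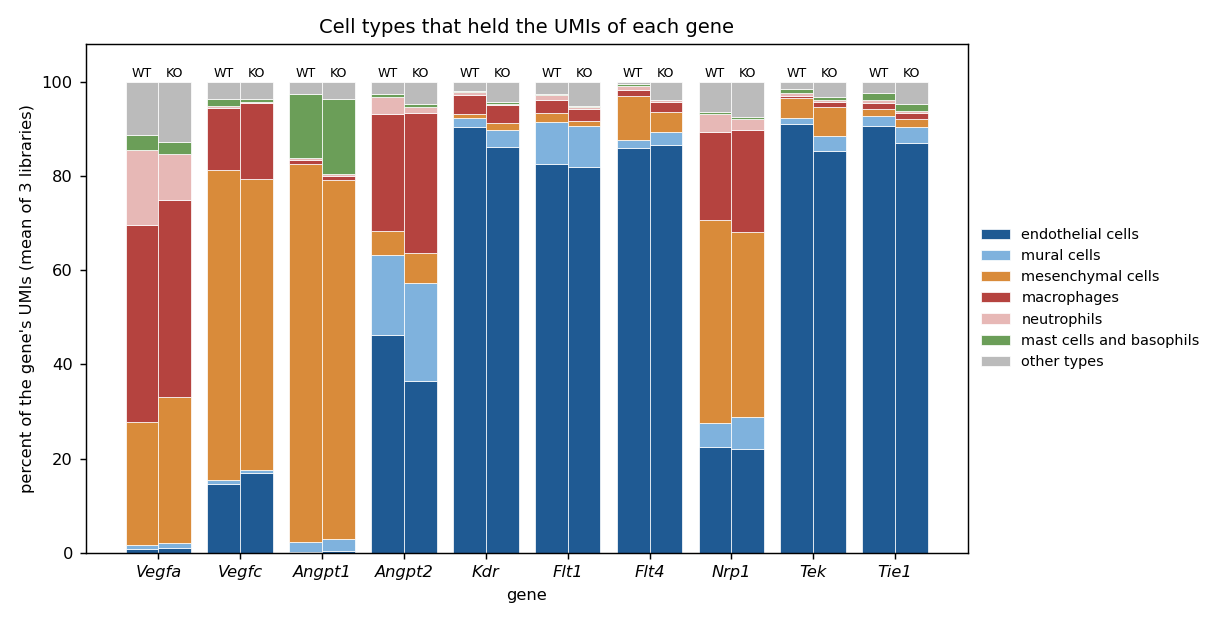
Percent of each gene's UMIs that lay in each cell type, as the mean of 3 wild-type (WT) and 3 Nlrp3-/- (KO) libraries. Endothelial cells fill most of the bars of Kdr, Flt1, Flt4, Tek and Tie1 in both genotypes, and the neutrophil part of Vegfa is 15.8% in wild-type and 9.81% in Nlrp3-/- libraries.

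In Nlrp3-/- libraries the main source by mean share was the same type for 10 of the 10 genes, and library by library in 28 of 30 cases. The exceptions were Vegfa in Nlrp3-/- replicate 2, with 45.0% in mesenchymal cells and 17.6% in macrophages, and Angpt2 in replicate 3, with 35.4% in macrophages and 32.2% in endothelial cells. The mean for Vegfa in macrophages, 41.7% ± 21.8, rested on 59.96% in replicate 1, and without that library mesenchymal cells led with 37.02% against 32.6%. Neutrophils held 9.81% ± 1.96 of Vegfa against 15.8% ± 4.20 in wild type, and every Nlrp3-/- library lay below every wild-type library (exact two-sided permutation test, p = 0.1). For Angpt2 the endothelial share was 36.4% ± 4.11 against 46.2% ± 6.18 (exact p = 0.1) and the mural share 20.8% ± 2.14 against 17.1% ± 0.522 (exact p = 0.1). With 3 libraries against 3, 0.1 is the smallest p this test can give. Other shares reached it too, such as Angpt2 in neutrophils and in erythroid cells and Angpt1 in T and NK cells. These shares move with the number of cells of each type, and neutrophils were 30.6% to 39.1% of wild-type and 18.9% to 24.4% of Nlrp3-/- cells.

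The second question was whether loss of Nlrp3 changed the level of each gene within a cell type. The edgeR quasi-likelihood test was run on the summed UMIs over all genes of each type, with Benjamini-Hochberg adjustment and a threshold of 0.05, and log2 differences are Nlrp3-/- minus wild type. P-values measure the spread between these libraries. The 10 genes gave 58 gene-by-type tests in 11 cell types, of which 1 passed, against 0.43% of all 110076 gene-by-type tests. Of the 58 differences, 38 were positive and 20 negative, and they ran from -1.88 to 1.39 on the log2 scale. An unadjusted p under 0.05 was found for 8 of the 58, where 15.6% of all gene-by-type tests had one, and the DESeq2 Wald test called 0 of the 37 for which it gave an adjusted p and gave none for 21. Groups did not overlap in 6 tests with higher and 3 with lower Nlrp3-/- values, where the share over all tests was 9.88% and 9.53%. Without wild-type replicate 3 the number that passed was 3 of 59, Vegfa in T and NK cells, Vegfa in hematopoietic progenitors and Tek in endothelial cells, but 8.9% of all gene-by-type tests passed without that library. Within 15 subsets, 0 of 70 tests passed by edgeR and 0 of the 46 with an adjusted p by DESeq2, against 0.442% of all gene-by-subset tests by edgeR. An unadjusted p under 0.05 was found for 6 of the 70 and for 14.5% of all. Without wild-type replicate 3, 3 of 70 subset tests passed, Vegfa in monocyte-like macrophages and Tek in sprouting and in venous endothelial cells, where 8.99% of all did.

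edgeR scales each library by TMM factors, which lowered the differences by 0.0570 to 0.248 on the log2 scale in the 11 types relative to plain CPM. The values below are plain CPM, and whether groups overlapped was judged on the scaled values.

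**Figure D3:**
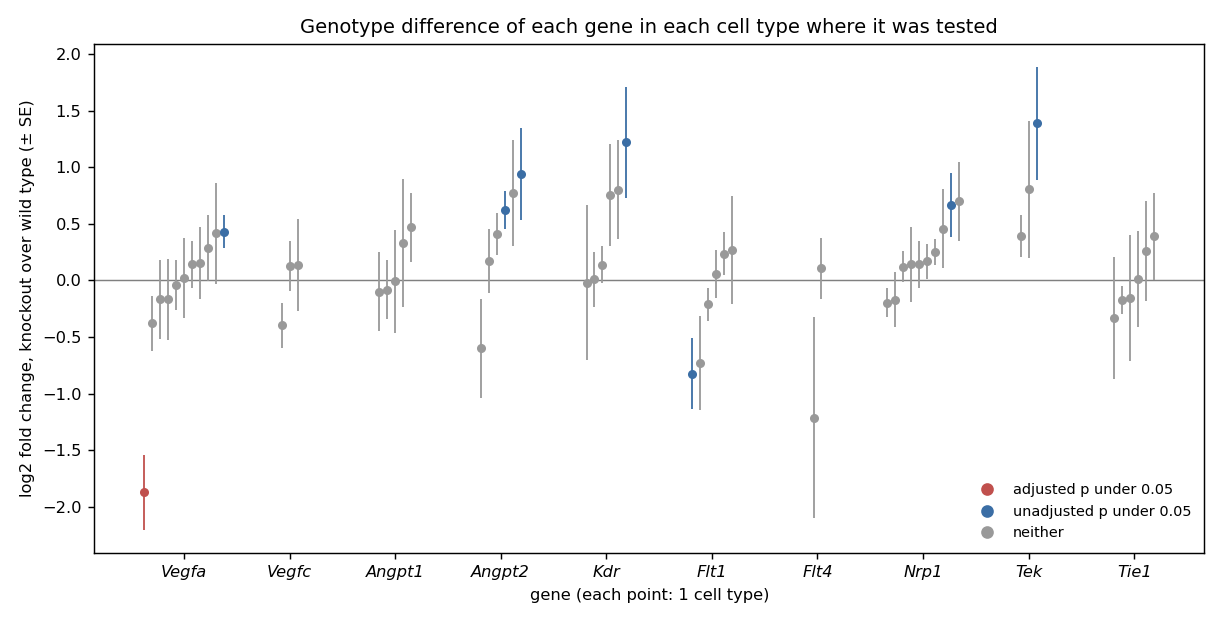
Log2 difference (Nlrp3-/- minus wild type) with its standard error for the 58 gene-by-type tests, grouped by gene. Red marks an adjusted p under 0.05 (edgeR), blue an unadjusted p under 0.05 and grey neither, and the 1 red point is Vegfa in T and NK cells at -1.88.

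Vegfa was lower in the T and NK cells of Nlrp3-/- mice. These cells had 57.2, 63.2 and 36.6 CPM in wild-type replicates 1, 2 and 3, and 18.2, 8.12 and 21.7 CPM in Nlrp3-/- replicates 1, 2 and 3, from 139 and 44 UMIs. Every Nlrp3-/- library lay below every wild-type library. The level fell by 1.88 ± 0.33 (SE) on the log2 scale (edgeR adjusted p = 0.00513), in a type where 1.06% of 7189 genes passed. Leaving out each library in turn gave -2.18 to -1.58 with edgeR adjusted p from 0.00122 to 0.0454, and DESeq2 gave -1.90 with no adjusted p, so that this test is not among those it could call.

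T and NK cells were then divided by marker UMIs, a division chosen after the data had been seen. NK-marked cells, those with UMIs of Klrb1c or Ncr1, had 95.2, 104.7 and 36.8 CPM in wild-type and 189, 27.5 and 63.1 CPM in Nlrp3-/- libraries, a difference of 0.03 ± 0.53 (edgeR adjusted p = 0.992). T-marked cells, with Cd3e or Trac, had 20.7, 25.6 and 2.65 CPM in wild-type and 3.34, 3.46 and 3.86 CPM in Nlrp3-/- libraries, from 24 and 7 UMIs, too few to test. Cells with neither or both markers had 117.9, 98.9 and 101.5 CPM in wild-type and 0, 14.2 and 75.1 CPM in Nlrp3-/- libraries, lower without overlap but short of the threshold (-1.75 ± 0.53, edgeR adjusted p = 0.195). They held 70 wild-type and 16 Nlrp3-/- UMIs of Vegfa, against 45 and 21 in NK-marked cells. By these markers they were assigned to neither T nor NK cells. NK-marked cells, the group with more Vegfa than T-marked cells in all 6 libraries, were 18.7%, 21.1% and 19.3% of wild-type T and NK cells and 9.49%, 9.74% and 9.72% of those of Nlrp3-/- mice (exact p = 0.1). T-marked cells made up 54.8%, 46.0% and 50.9% in wild-type and 68.4%, 63.7% and 72.2% in Nlrp3-/- libraries (exact p = 0.1). The part of this mixture in the lower Vegfa was not tested. In T and NK cells as a whole 12 of the 14 immediate-early and dissociation-response genes were also negative, with a median of -0.29 against 0.02 over all genes, 0 passing and 5 at an unadjusted p under 0.05 (12.5% of all genes). Their part in the lower Vegfa was not tested either. Over the 11 types the median of these 14 genes ran from -0.40 in neutrophils to 0.20 in mast cells and basophils. In neutrophils 12 of the 14 were negative, and in macrophages 11 of the 14 (-0.23).

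Transcripts of other cells in the T and NK group were also measured. The 10 macrophage markers summed to 132 to 225 CPM in wild-type and 225 to 319 CPM in Nlrp3-/- libraries, the 10 neutrophil markers to 785 to 1534 and 914 to 1531 CPM, and the 10 B cell markers to 9.88 to 141 and 18.8 to 48.7 CPM, with no marker of these lists at 0. In T and NK cells without a UMI of the macrophage or B cell markers Vegfa stood at 52.2, 66.5 and 26.6 CPM against 18.3, 10.0 and 19.3 CPM. That difference was about as large, -1.79 ± 0.42, and no longer passed (edgeR adjusted p = 0.0748). Extracellular Vegfa was 68.2, 88.5 and 104.8 CPM in wild-type and 110.9, 95.1 and 72.3 CPM in Nlrp3-/- libraries, with overlap, and its part in the values of these cells was not tested.

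**Figure D4:**
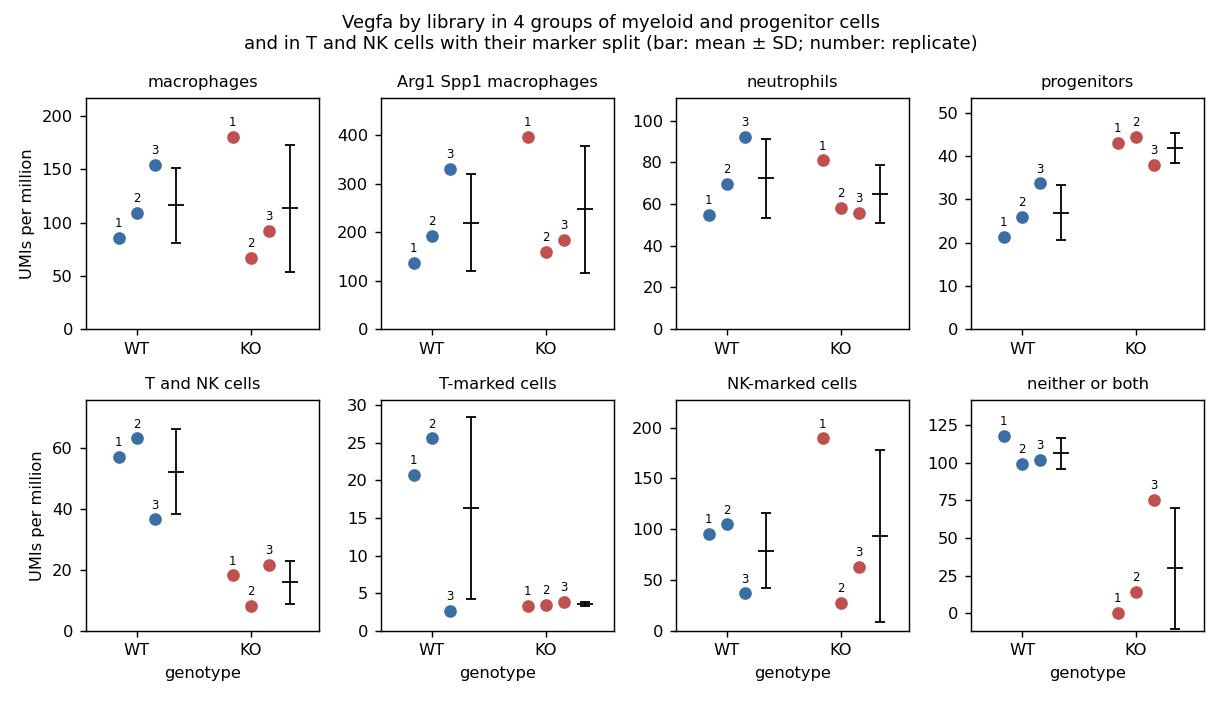
Vegfa level in CPM per library (points), with mean and SD (lines), in macrophages, Arg1 Spp1 macrophages, neutrophils, progenitors, T and NK cells and the marked parts of the T and NK cells, for wild-type and Nlrp3-/- libraries. The T and NK panel shows 36.6 to 63.2 CPM in wild-type and 8.12 to 21.7 CPM in Nlrp3-/- libraries, while macrophages overlap.

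In the largest sources of Vegfa no difference was larger than the spread between libraries. Macrophages had 85.5, 109 and 154 CPM in wild-type and 181, 67.0 and 92.2 CPM in Nlrp3-/- libraries, a difference of -0.17 ± 0.36 (edgeR adjusted p = 0.814). The Nlrp3-/- libraries were at both ends of the range, and in the Arg1 Spp1 subset the same replicate 1 was highest, with 137, 192 and 331 CPM in wild-type and 397, 160 and 184 CPM in Nlrp3-/- libraries (0.11 ± 0.39, adjusted p = 0.923). Leaving out Nlrp3-/- replicate 2 or wild-type replicate 3 turned the sign in macrophages, and leaving out Nlrp3-/- replicate 1 or wild-type replicate 1 turned it in the subset. Neutrophils held 54.6, 69.8 and 92.3 CPM in wild-type and 81.0, 58.2 and 55.7 CPM in Nlrp3-/- libraries (-0.38 ± 0.24, adjusted p = 0.497), and mesenchymal cells 36.8, 51.0 and 69.6 CPM against 50.6, 79.9 and 35.6 CPM (0.02 ± 0.35, adjusted p = 0.984). These types and macrophages differed in make-up between libraries. Arg1 Spp1 cells, the macrophage subset with the most Vegfa, were 868 of 3581, 1367 of 4908 and 482 of 2145 macrophages in wild-type libraries. In Nlrp3-/- libraries they were 1205 of 3673, 372 of 2150 and 804 of 3922. Mature neutrophils, the neutrophil subset with the most Vegfa, were 59.9%, 74.5% and 55.1% of wild-type neutrophils and 55.7%, 22.4% and 28.9% of those of Nlrp3-/- libraries. Dividing cells were 547 of 1185, 1443 of 2405 and 399 of 1530 mesenchymal cells in wild-type and 236 of 2285, 238 of 1923 and 436 of 3092 in Nlrp3-/- libraries, and chondrocyte-like cells were 27.6% of mesenchymal cells in Nlrp3-/- replicate 2 and at most 7.76% in any other library. The largest dividing sub-cluster, of 1782 cells, had 61.95% of them from wild-type replicate 2. It was led by Actg2, Cxcl5, Acta2 and Saa3, with Ube2c, Birc5 and Cenpf also among its leading genes. The part of this make-up in the values of these types was not tested.

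Some smaller myeloid groups came nearer to the threshold without passing it. Immature granule-rich neutrophils had 48.4, 49.2 and 79.0 CPM of Vegfa in wild-type and 36.9, 50.3 and 39.2 CPM in Nlrp3-/- libraries, a difference of -0.69 ± 0.19 (edgeR adjusted p = 0.121). Resident-like macrophages had 69.6, 80.9 and 153 CPM against 75.2, 35.6 and 67.1 CPM (-0.85 ± 0.30, adjusted p = 0.181), and monocyte-like macrophages 53.3, 68.1 and 46.6 CPM against 41.1, 47.1 and 44.8 CPM (-0.49 ± 0.18, adjusted p = 0.250). In these 3 subsets the groups overlapped in plain CPM and separated only after scaling. Without a filter on low counts the first and the second passed (adjusted p = 0.0317 and 0.000148), where 2.52% of all gene-by-subset tests did. Hematopoietic progenitors went the other way, with 21.2, 25.9 and 33.7 CPM in wild-type and 43.1, 44.5 and 37.9 CPM in Nlrp3-/- libraries, higher without overlap at 0.43 ± 0.15 but not past the threshold (adjusted p = 0.181, or 0.0305 without wild-type replicate 3, a setting in which 13.1% of all genes of that type passed). In the other 6 types the Vegfa differences lay between -0.17 and 0.42 with overlap.

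Vegfc, the ligand of lymphatic growth, passed in none of its 3 types or 7 subsets by edgeR. Endothelial cells had 14.1, 15 and 25.1 CPM in wild-type and 16.6, 23.5 and 23.5 CPM in Nlrp3-/- libraries (0.13 ± 0.22, adjusted p = 0.762). Mesenchymal cells, where most of its transcripts lay and whose make-up differed as given above, had 10.2, 13.6 and 15.1 CPM against 11.2, 8.41 and 11.4 CPM (-0.40 ± 0.20, adjusted p = 0.419). Both comparisons overlapped.

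Angpt1, which stabilises vessels, was uneven between the Nlrp3-/- libraries. Mesenchymal cells had 41.8, 42.1 and 31.6 CPM in wild-type and 48.9, 17.9 and 47.1 CPM in Nlrp3-/- libraries, so that replicate 2 was the lowest of all 6 libraries while the other two were the highest. The difference was -0.10 ± 0.35 (edgeR adjusted p = 0.898), and 0.23 without Nlrp3-/- replicate 2, the library rich in chondrocyte-like cells. The part of those cells in the Angpt1 values was not tested. In inflammatory mesenchymal cells Angpt1 reached 99.96, 70.1 and 90.4 CPM in Nlrp3-/- libraries against 67.0, 52.2 and 63.5 CPM in wild type, above it in plain CPM and overlapping after scaling (0.37 ± 0.20, adjusted p = 0.542). Mast cells and basophils had 42.0, 41.4 and 96.4 CPM against 58.6, 121 and 95 CPM (0.47 ± 0.30, adjusted p = 0.504).

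Angpt2, the angiopoietin of activated vessels, had its lowest adjusted p in macrophages. They had 4.75, 6.85 and 5.38 CPM in wild-type and 9.65, 10.8 and 9.20 CPM in Nlrp3-/- libraries, from 368 and 592 UMIs. All Nlrp3-/- libraries lay above all wild-type libraries, and the difference of 0.63 ± 0.17 did not pass the threshold (edgeR adjusted p = 0.132, and 0.0617 by DESeq2). Osteoclast-like macrophages, with 11.8, 16.3 and 10.2 CPM against 22.0, 23.1 and 21.8 CPM, were likewise separated (0.58 ± 0.21, adjusted p = 0.196). This subset was 238 of 3581, 402 of 4908 and 181 of 2145 macrophages in wild-type libraries. In Nlrp3-/- libraries it was 440 of 3673, 275 of 2150 and 433 of 3922. The part of this make-up in the macrophage values was not tested. Leaving out each library in turn kept the macrophage difference between 0.54 and 0.82. Extracellular Angpt2 in Nlrp3-/- libraries was 8.86, 5.39 and 6.76 CPM, which overlapped the wild-type values given above.

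In macrophages the 10 endothelial markers summed to 21.3 to 40.0 CPM in wild-type and 24.0 to 35.0 CPM in Nlrp3-/- libraries, and the 10 mural markers to 27.2 to 34.9 and 39.8 to 50.0 CPM, with none at 0. The mesenchymal markers stood at 301 to 596 and 554 to 1214 CPM. The part of endothelial, mural or mesenchymal transcripts in the Angpt2 difference was not tested.

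Mural cells, which held the highest Angpt2 level, had 52.2, 54.1 and 79.2 CPM in wild-type and 74.1, 101 and 84.2 CPM in Nlrp3-/- libraries (0.41 ± 0.19, edgeR adjusted p = 0.374), with overlap. Endothelial cells had 51.2, 32.7 and 65.1 CPM against 47.1, 92.9 and 45.4 CPM (0.17 ± 0.28, adjusted p = 0.743). The high value of Nlrp3-/- replicate 2 came with 218 CPM in its sprouting subset, where the other libraries lay between 46.5 and 98.2 CPM (0.57 ± 0.37, adjusted p = 0.511), and without that library the endothelial difference was -0.19 and the sprouting one -0.15. In hematopoietic progenitors Angpt2 was near its lowest level, 17 UMIs summed over the wild-type and 41 over the Nlrp3-/- libraries, with 0.504, 0.558 and 0.885 CPM against 1.28, 1.74 and 1.26 CPM (0.94 ± 0.41, adjusted p = 0.256). The endothelial markers in those cells summed to 35.3 to 36.3 and 46.4 to 97.4 CPM, and their part in it was not tested.

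The receptors were compared next in endothelial cells, 210 to 576 per wild-type and 301 to 871 per Nlrp3-/- library. Of the 6 receptors 0 passed by edgeR, 0 by DESeq2 and 0 had an unadjusted p under 0.05, in a type where 36 of 11329 genes passed and where leaving out each library in turn gave between 14 and 2438. TMM scaling lowered the differences by 0.146 here. The 10 endothelial markers summed to 6667 to 7520 CPM in wild-type and 7472 to 8779 CPM in Nlrp3-/- libraries. In Nlrp3-/- replicate 1, 52.7% of its 871 endothelial cells lay in 5 of 14 sub-clusters made mostly of 1 library, so each value is also given without them.

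Kdr, the main signalling receptor, had 373, 425 and 544 CPM in wild-type and 430, 613 and 586 CPM in Nlrp3-/- libraries, with overlap (0.14 ± 0.16, edgeR adjusted p = 0.636). Flt1, its decoy, had 372, 404 and 435 CPM against 369, 693 and 525 CPM (0.24 ± 0.19, adjusted p = 0.480). Wild-type Flt1 was tight, and the Nlrp3-/- libraries held both the lowest and the highest value. Flt4 had 33.0, 31.5 and 62.2 CPM against 48.8, 65.8 and 33.8 CPM (0.11 ± 0.27, adjusted p = 0.837), and Nrp1 167, 176 and 194 CPM against 177, 247 and 222 CPM (0.12 ± 0.14, adjusted p = 0.613). Without the sub-clusters of 1 library the differences were 0.16 for Kdr, 0.25 for Flt1, 0.04 for Flt4 and 0.15 for Nrp1. The small lymphatic-like cluster given above stayed in both sets of values. It had 6, 0 and 9 cells in wild-type and 11, 1 and 0 cells in Nlrp3-/- replicates 1, 2 and 3. Its part in the Flt4 values was not tested.

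Tek, the angiopoietin receptor, had 120, 133 and 208 CPM in wild-type and 190, 267 and 207 CPM in Nlrp3-/- libraries. Wild-type replicate 3 lay among the Nlrp3-/- libraries and the other two lay below them. The difference was 0.39 ± 0.19 and did not pass (edgeR adjusted p = 0.258), and it was 0.59 with an adjusted p of 0.0205 without wild-type replicate 3, where 20.8% of all endothelial genes passed. Without the sub-clusters of 1 library the values were 119, 133 and 206 CPM against 210, 268 and 207 CPM (0.45, adjusted p = 0.180). There the groups separated in plain CPM and overlapped after scaling. The unadjusted edgeR p of Tek was then under 0.05, as for 21.9% of all genes tested in that setting. Venous cells, the subset with the most Tek, had 172, 240 and 354 CPM against 357, 423 and 332 CPM (0.43 ± 0.22, adjusted p = 0.360), and sprouting cells 99.3, 116 and 187 CPM against 175, 201 and 177 CPM (0.35 ± 0.19, adjusted p = 0.424). In both, wild-type replicate 3 was again the highest wild-type library.

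Tie1, the partner of Tek, was level in plain CPM, at 256, 269 and 248 in wild-type and 244, 255 and 263 in Nlrp3-/- libraries. After scaling the difference was -0.17 ± 0.12 (edgeR adjusted p = 0.442), and -0.13 without the sub-clusters of 1 library. A difference between Tek and Tie1 was not tested.

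**Figure D5:**
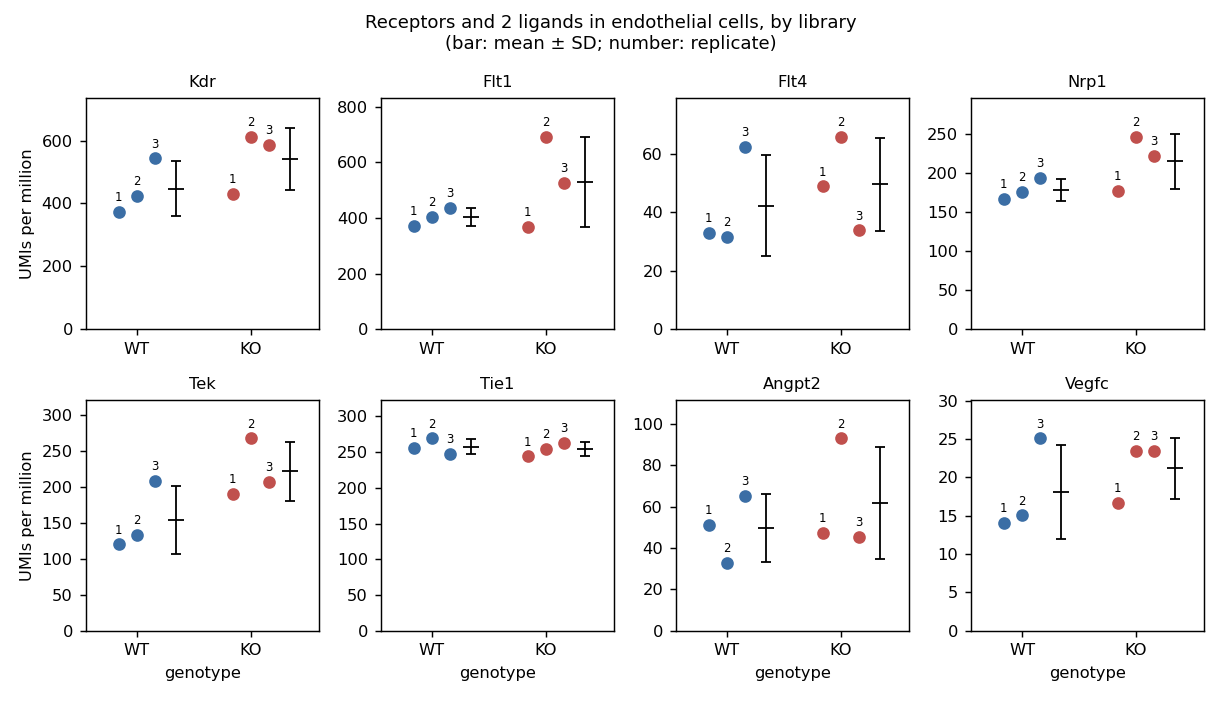
Levels in CPM of Kdr, Flt1, Flt4, Nrp1, Tek, Tie1, Angpt2 and Vegfc in endothelial cells, per library (points) with mean and SD (lines). The groups overlap in all 8 panels, and for Tek 2 of the 3 wild-type points (120 and 133 CPM) lie below every Nlrp3-/- point (190 to 267 CPM).

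Several receptor differences outside endothelium came from few UMIs. Mural cells had 3.97, 10.5 and 6.0 CPM of Tek in wild-type and 34.4, 13.7 and 11.7 CPM in Nlrp3-/- libraries, from 31 and 97 UMIs. The groups did not overlap, and the difference of 1.39 ± 0.50 did not pass (edgeR adjusted p = 0.294). Without the filter on low counts, where 2.19% of all gene-by-type tests passed, it did (adjusted p = 0.00698). The difference was 0.69 without Nlrp3-/- replicate 1. Kdr in these cells was 44.9, 33.6 and 8.40 CPM against 90.1, 42.4 and 35.0 CPM (0.76 ± 0.45, adjusted p = 0.493, or 0.0401 without the filter). This value was 0.18 without Nlrp3-/- replicate 1, 0.39 without wild-type replicate 3 and 1.15 without wild-type replicate 1, with edgeR adjusted p from 0.481 to 0.887 over all libraries left out. Outside cells Kdr stood at 16.5 to 32.5 CPM and Tek at 8.94 to 17.5 CPM. The 10 endothelial markers in mural cells summed to 472 to 892 CPM in wild-type and 834 to 1600 CPM in Nlrp3-/- libraries with none at 0, and their part in these values was not tested. Flt1 in mural cells, at 137, 151 and 163 CPM against 127, 152 and 139 CPM, overlapped in plain CPM and was lower only after scaling (-0.21 ± 0.15, adjusted p = 0.557).

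Conventional dendritic cells had 8.02, 8.90 and 0.908 CPM of Kdr in wild-type and 8.25, 28.3 and 17.8 CPM in Nlrp3-/- libraries, with overlap (1.22 ± 0.49, edgeR adjusted p = 0.181). The difference was 0.81 without Nlrp3-/- replicate 2. Without the filter it passed (adjusted p = 0.0366), where 2.19% of all gene-by-type tests did. Of the 6 values 5 lay below the extracellular Kdr of the same library. The 10 endothelial markers in these cells summed to 19.98 to 36.4 CPM in wild-type and 31.8 to 42.0 CPM in Nlrp3-/- libraries with none at 0, and their part was not tested. Mesenchymal Flt1 was 1.21, 2.07 and 1.18 CPM against 0.898, 0.841 and 0.910 CPM, lower without overlap (-0.82 ± 0.32, adjusted p = 0.377). That difference was 0.03 when no doublets were removed. Extracellular Flt1 stood at 17.6 to 27.5 CPM, above each of these mesenchymal values.

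Nrp1 was the receptor whose groups separated in immune cells, but it passed in none of its 10 tested types. Over all gene-by-type tests, 9.88% separated with higher Nlrp3-/- values. Macrophages had 28.3, 33.0 and 37.8 CPM in wild-type and 39.5, 44.3 and 47.9 CPM in Nlrp3-/- libraries, without overlap (0.25 ± 0.11, edgeR adjusted p = 0.253). The resident-like subset, whose Nrp1 level is given above, differed in size. It was 668 of 3581, 1078 of 4908 and 455 of 2145 wild-type macrophages. In Nlrp3-/- libraries it was 920 of 3673, 511 of 2150 and 1256 of 3922, and its part was not tested. Monocyte-like macrophages had 18.9, 24.8 and 32.6 CPM against 43.3, 56.3 and 29.5 CPM (0.63 ± 0.24, adjusted p = 0.267), and MHC-II macrophages 32.8, 35.7 and 40.8 CPM against 39.4, 63.8 and 52.8 CPM (0.39 ± 0.17, adjusted p = 0.264), both with overlap. T and NK cells had 16.7, 17.8 and 24.4 CPM against 33.8, 30.2 and 39.6 CPM, from 50 and 94 UMIs, again without overlap (0.67 ± 0.28, adjusted p = 0.319). T-marked cells, which held 38 of the 50 and 80 of the 94 UMIs, had 29.0, 21.6 and 34.5 CPM against 35.1, 38.0 and 47.6 CPM, overlapping after scaling (0.36 ± 0.30, adjusted p = 0.697). In T and NK cells without macrophage or B cell marker UMIs the difference was 1.01 ± 0.42 (adjusted p = 0.413). The larger share of T-marked cells in Nlrp3-/- libraries and the extracellular Nrp1, 22.7 to 40.7 CPM over the 6 libraries, stand beside these values and their part was not tested. The mesenchymal markers, of a type rich in Nrp1, summed in T and NK cells to 276 to 859 CPM in wild-type and 496 to 1305 CPM in Nlrp3-/- libraries, and their part was not tested. In mural cells Nrp1 was 124, 153 and 134 CPM against 152, 188 and 159 CPM (0.17 ± 0.16, adjusted p = 0.660), and in mesenchymal cells the difference was -0.19 ± 0.13 (adjusted p = 0.489).

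Summed over all cells, where fewer cells of a type and less RNA per cell cannot be told apart, 0 of the 10 genes passed by edgeR or DESeq2 and 0 had an unadjusted p under 0.05, where 0.15% of all genes passed and 11.6% had an unadjusted p under 0.05. Angpt2 had 5.55, 5.93 and 4.78 CPM in wild-type and 9.86, 7.36 and 7.07 CPM in Nlrp3-/- libraries, the only one of the 10 without overlap (0.42 ± 0.20, edgeR adjusted p = 0.450). The share of all genes without overlap was not counted for this sum, and within the 11 types 9.88% of tests separated upward. Tek had 7.38, 10.9 and 7.63 CPM against 17.4, 9.57 and 12.5 CPM (0.45 ± 0.26, adjusted p = 0.498). The other 8 lay between -0.20 and 0.14. Endothelial cells were 2.71%, 3.85% and 2.25% of the cells of wild-type and 7.81%, 2.75% and 4.35% of those of Nlrp3-/- libraries (exact two-sided permutation test, p = 0.2). The 7.81% of replicate 1 counted 459 cells of the sub-clusters of 1 library. Without these sub-clusters the shares were 2.65%, 3.77% and 2.18% against 3.85%, 2.71% and 4.29%, and the difference was 0.752 points in place of 2.03 (exact p = 0.2). With all endothelial cells it was 0.613 points without Nlrp3-/- replicate 1 and at most 3.14 points with another library left out. Mural cells were 0.958%, 1.20% and 0.751% against 2.11%, 1.26% and 1.41%, without overlap (exact p = 0.1), and with overlap when erythroid cells and neutrophils were left out of the denominator (exact p = 0.2).

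Other genes of vessel growth were counted in lists of related genes. In endothelial cells 17 of 22 genes of sprouting, Notch signalling and vessel guidance were tested, 0 passed by edgeR, 3 had an unadjusted p under 0.05 (21.2% of all endothelial genes had one), and 15 of the 17 were positive with a median of 0.30, where the median over all genes was 0.02. In the same cells the endothelial identity and junction genes were positive in 15 of 20 (median 0.20), with 0 passing and 4 at an unadjusted p under 0.05. The sprouting list was also positive in 10 of 12 in macrophages (0.26) and 10 of 13 in mural cells (0.23), again with 0 passing, and 4 in each type had an unadjusted p under 0.05 (20.2% and 13.5% of all genes), but in 3 of 8 in neutrophils (-0.15). The identity and junction genes were positive in 12 of 17 in macrophages (0.20) and in 17 of 19 in mural cells (0.61), and their part in the values of the sprouting list there was not tested. The most abundant members of the sprouting list in endothelial cells were Aplnr, the apelin receptor (0.31 ± 0.14, adjusted p = 0.236), S1pr1, a sphingosine-1-phosphate receptor (0.06 ± 0.14, adjusted p = 0.815), and Plxnd1, a semaphorin receptor (0.24 ± 0.13, adjusted p = 0.316). Of 12 other VEGF and angiopoietin family genes 6 were tested in endothelial cells and 0 passed, with 3 at an unadjusted p under 0.05 and a median of -0.16. Among these, Ptprb, the phosphatase that acts on Tie2, had 319, 340 and 395 CPM in wild-type and 477, 631 and 523 CPM in Nlrp3-/- libraries, separated but not past the threshold (0.48 ± 0.13, adjusted p = 0.128). The VEGF coreceptor Nrp2 differed by 0.16 ± 0.16 (adjusted p = 0.582) and Angptl4 by -0.71 ± 0.29 (adjusted p = 0.205).

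Hypoxia genes, many of them targets of the factor that also drives Vegfa, passed in 0 of the 11 types and 0 of the 15 subsets by edgeR. In endothelial cells 12 of 24 tested were positive, with a median of 0.03. Over the 11 types the positive members ran from 6 of 21 in B cells (median -0.13) to 22 of 26 in mesenchymal cells (0.38, where the median over all genes was 0.04), and over the 15 subsets from 4 of 19 in Pi16 Dpp4 cells (-0.18) to 18 of 20 in mature neutrophils (0.29). The sources of Vegfa leaned both ways. Macrophages had 15 of 25 positive (0.08), Arg1 Spp1 macrophages 20 of 25 (0.17), monocyte-like macrophages 6 of 22 (-0.16) and MHC-II macrophages 10 of 23 (-0.06). An unadjusted p under 0.05 was found for 6 of 24 in endothelial cells (21.2% of all genes), 2 of 25 in macrophages (20.2%), 4 of 26 in mesenchymal cells (12.8%) and 10 of 26 in dividing mesenchymal cells (18.0%). Adm, the vasodilator adrenomedullin, passed in endothelial cells without the sub-clusters of 1 library, where 0.601% of 11144 genes did, and not in all endothelial cells, at 37.6, 36.7 and 33.7 CPM against 20.6, 25.5 and 17.1 CPM (-0.95 ± 0.17, edgeR adjusted p = 0.0421). Over the 11 types, where 0.43% of all tests passed, 1 of 100 tests of angiogenesis inhibitors passed and 0 of the tests of the other 6 lists. It was Cxcl10, an interferon-induced chemokine that restrains vessel growth, in T and NK cells, where it fell from 188, 129 and 155 CPM to 79.3, 39.5 and 89.5 CPM (-1.34 ± 0.25, adjusted p = 0.00820), in the cells whose immediate-early and dissociation-response genes are given above. Cxcl10 also fell in venous endothelial cells, with 218, 134 and 41.2 CPM in wild-type and 5.85, 27.3 and 28.3 CPM in Nlrp3-/- libraries (-2.88 ± 0.49, adjusted p = 0.0107). It was the 1 call among 138 subset tests of inhibitors, against 0.442% of all subset tests. In venous cells 10 of the 14 immediate-early and dissociation-response genes were negative, with a median of -0.32 against 0.02 over all genes, 0 passing and 5 at an unadjusted p under 0.05 (15.5% of all genes), and their part in the lower Cxcl10 was not tested.

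Among growth factors that recruit or act on vessel cells 2 of 157 subset tests passed, against 0.442% of all gene-by-subset tests. Pdgfb, the factor by which endothelium draws pericytes, rose in arterial cells from 249, 276 and 332 CPM to 390, 617 and 589 CPM (0.81 ± 0.19, edgeR adjusted p = 0.0479). This arterial subset held 29, 59 and 21 cells in wild-type and 51, 37 and 53 cells in Nlrp3-/- libraries. Hbegf, an EGF-family ligand, fell in osteoclast-like macrophages from 52.1, 57.1 and 43.9 CPM to 30.02, 31.7 and 33.9 CPM (-0.87 ± 0.16, adjusted p = 0.0476), a subset where 0.441% of 9974 genes passed. Neither Pdgfb nor Hbegf was followed with libraries left out in turn. In those settings 13 to 346 genes passed in arterial cells and 19 to 2082 in osteoclast-like macrophages. Of the 14 immediate-early and dissociation-response genes 3 passed in the arterial subset, where 1.12% of all genes did, each of them lower: Atf3 (-1.91 ± 0.36, adjusted p = 0.0173), Hspa1a (-0.95 ± 0.19, adjusted p = 0.0311) and Ier3 (-1.11 ± 0.24, adjusted p = 0.0395). Their median there was -0.74 against 0.02 over all genes, and their part in the arterial values was not tested.

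The pattern of each gene over the tissue was also set beside that of all other genes, as the Pearson correlation of log2(CPM + 1) over 81 points, 11 types and 16 subsets in the 3 wild-type libraries. The points share libraries, and subsets are contained in types, so these values are descriptions. Kdr was nearest to Gpr4, Cdh5 and Nos3 (r = 0.94 each), Flt1 to Esam, Sox17 and Ptprb (0.96, 0.95 and 0.95) and Flt4 to Nova2, Kif26a and Robo4 (0.97 each). Tek was nearest to Unc45b, Fgd5 and Nova2 (0.97, 0.97 and 0.96), and Tie1 to C130074G19Rik, Prex2 and Robo4 (0.97 each). The 5 receptors had correlations of 0.89 to 0.95 with each other.

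The ligands and Nrp1 had looser company. Vegfa was nearest to Fnip1, Cd44 and Irs2 (r = 0.78, 0.77 and 0.74) and ran opposite to Tek and Tie1 (-0.71 each). Vegfc was nearest to Gask1b, Ecscr and Tmem158 (0.87, 0.86 and 0.86), Angpt1 to Tfr2, Samd14 and Ptpn13 (0.92, 0.91 and 0.88), Angpt2 to Scarf1, Chst7 and Ednrb (0.84, 0.83 and 0.82) and Nrp1 to Ifi44, Iigp1 and Nectin2 (each 0.81). Angpt2 correlated with the 5 endothelial receptors at 0.71 to 0.79, whereas Angpt1 did so at -0.36 to -0.14.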

How the data were processed

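The authors deposited a raw matrix of UMI counts per gene and barcode for each library, before cell calling, normalization or pooling. The submitters' processing notes name Cell Ranger 2.1.1 and build mm10, and the matrix headers name Cell Ranger 4. Group and replicate of each library came from its title. Positions are those of the GRCm38 annotation matched by gene identifier, and promoters are from RefSeq for GRCm38.p6.

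Barcodes with at least 500 UMIs, 200 genes and at most 10% mitochondrial UMIs that differed from the pool of barcodes with at most 100 UMIs (false discovery rate 0.01, 10000 simulated profiles) were taken as cells. Scrublet scores removed 12857 of 93247 cells at a rate of 0.8% per 1000 cells, and the automatic threshold marked 4020. Clusters were made with scanpy 1.11.5 (2000 variable genes without the 10 genes studied, 30 principal components, 15 neighbours, Leiden resolution 1.0, and 0.6 within types). A cluster took the name of a marker list with at least 3 markers in at least 10% of cells at 1.5-fold or more and 0.4 (log2) ahead of the next list. Clusters in which 1 library supplied more than 75% of the cells were set aside (9498 cells). Names mean resemblance to these markers.

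Counts were summed per library and type or subset with at least 20 cells in every library, and tested with edgeR 4.0.16 (R 4.3.3; TMM, filterByExpr, quasi-likelihood, Benjamini-Hochberg over all genes, threshold 0.05). Shares were tested with an exact permutation test over 20 assignments. The edgeR script was tested on simulated data. Alternatives covered the cell filters, doublets, resolution, set-aside clusters, variable genes, RLE size factors, the low-count filter, DESeq2 1.42.0, the replicate block and each library left out. Leaving out sub-clusters of 1 library and dividing T and NK cells were added after seeing the data. The genes, marker lists and pathway lists were chosen with earlier results of these data known. Named were all 10 genes in the types reported, pathway genes past the threshold, up to 3 more per list by mean CPM, and for each of the 10 the 3 genes with the highest correlation among those with at least 20 CPM in a type.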

Additional observations from a re-analysis of the deposited data

Results flagged for a closer look

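Vegfa separated the genotypes in opposite directions in 2 cell types. Over all gene-by-type tests, 9.88% separated with higher and 9.53% with lower Nlrp3-/- values. In hematopoietic progenitors all 3 Nlrp3-/- libraries lay above all 3 wild-type libraries, at a log2 difference of 0.43 (edgeR adjusted p = 0.181). In T and NK cells all 3 Nlrp3-/- libraries lay below them, at -1.88 (edgeR adjusted p = 0.00513). The difference between the cell types was not tested.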

How the results depend on the processing

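Among the genes studied here, no single-gene test that was followed through the settings passed in all of them. Vegfa in T and NK cells was -1.79 in cells with 0 macrophage or B cell marker UMIs (edgeR adjusted p = 0.0748) and 0.029 in NK-marked cells. Calls for other genes, such as Cxcl10, Pdgfb, Hbegf and Adm, were not carried through all these settings. For Vegfa in T and NK cells, libraries left out in turn gave -2.18 to -1.58. The number of gene-by-type tests that passed was 1, and 0 by DESeq2, which gave no adjusted p for that test, 4 without a filter on low counts (Vegfa in T and NK cells, Kdr in conventional dendritic and in mural cells, Tek in mural cells, where 2.19% of all tests passed), and 1 to 3 with libraries left out in turn (0.184% to 0.475% of all tests, and 8.9% without wild-type replicate 3, the setting with 3). For subsets it was 0, then 2 without the filter (2.52% of all) and 0 to 3 with libraries left out (3 without wild-type replicate 3, 8.99% of all), and over all cells it stayed at 0. The causes were not tested.

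Signs turned for Flt1 in mesenchymal cells with no doublets removed (0.025) and for Flt4 in endothelial cells with at least 1000 UMIs per cell (-0.11) or no doublets removed (-0.034). With libraries left out they also turned for Vegfa in macrophages (-0.72 to 0.12) and in the Arg1 Spp1 subset (-0.47 to 0.50), Vegfc in endothelial cells (-0.0020 to 0.33), Angpt1 in mesenchymal cells (-0.30 to 0.23), Angpt2 in endothelial cells (-0.19 to 0.35) and in sprouting cells (-0.15 to 0.86), and Flt4 in endothelial cells (-0.11 to 0.39). Wild-type levels in endothelial cells under TMM scaling over cell types were 365 CPM for Flt1, 161 CPM for Nrp1 and 233 CPM for Tie1. Same-numbered libraries did not deviate together (correlations of -0.13, -0.71 and -0.17 over 8594 genes), so the numbers were not treated as pairs. With the replicate number as a block Vegfa in T and NK cells was -1.85 (adjusted p = 0.00327) and the counts were 1, 0 and 0.

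Low counts limit Vegfa in T and NK cells (139 and 44 UMIs), Tek in mural cells (31 and 97) and Angpt2 in progenitors (17 and 41). With 3 libraries a group, a difference that did not pass can still be present, and the smallest detectable difference was not estimated. Each library's pool of animals, the sex of the mice and the genotype stay together in every comparison.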
